A study of Mus musculus with 9 samples.

Results

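Cholesterol synthesis and sterol sensing were followed here through 8 mouse genes, Insig1, Srebf2, Hmgcs1, Sqle, Fdps, Acat2, Stard4 and Abca1, chosen by name from the 56262 genes of the count tables. RNA was sequenced from sorted cells labelled long-term hematopoietic stem cells (LT-HSCs, the blood-forming cells that sustain blood production for life), in 9 libraries, 3 in each of 3 groups of wild-type C57BL/6 mice. Control mice were untreated. The 5-FU+Saline mice were given 250 mg/kg of 5-FU, the antimetabolite 5-fluorouracil that is toxic to cycling cells, and then PBS, the vehicle that the group's name calls saline. The 5-FU+FMT mice received the same dose of 5-FU and then FMT, which the labels do not spell out, at 5 mg/kg into a vein on days 1, 4 and 7. In both 5-FU groups cells were taken on day 8, and the labels give no day for Control. Cells were sorted by a gate negative for lineage markers and positive for Sca1, c-Kit and CD150, whose last marker is written C48-. The labels say neither how many mice made a library nor their sex. The p-values therefore measure the spread between libraries, which may be technical in part or in whole.

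Cells make cholesterol from acetyl-CoA through mevalonate, farnesyl diphosphate, squalene and lanosterol. The transcription factor SREBP2, the product of Srebf2, is held in the endoplasmic reticulum by SCAP and INSIG proteins while sterols are plentiful. When sterols run low it is carried to the Golgi, cut free by proteases, and turns on the genes of synthesis and uptake, Insig1 among them. When oxysterols build up, LXR receptors (Nr1h2, Nr1h3) turn on export genes such as Abca1. Export of cholesterol through such pumps is known to restrain the proliferation of blood stem and progenitor cells.

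The stretch of 250 bases before each gene's start is shown for the 4 genes on which the synthesis and sensing results turn. Sequences are RefSeq's on GRCm38.p6 (mm10), and 5 of the 8 genes were in that set, the fifth being Abca1. Starts are those of RefSeq and can differ from those of the count tables. The windows of Insig1, Srebf2 and Acat2 reach into the gene as counted. The sequences are printed 5′ to 3′ on the gene's own strand. Capitals mark matches, on either strand, to 3 short motifs: the sterol regulatory element core CACNCCA, to which SREBPs bind, the CCAAT box CCAAT, and the E-box CACGTG. N stands for any base, and the longer element TCACNCCAC holds the core within it.
Insig1, chr5:28071162-28071411, plus strand: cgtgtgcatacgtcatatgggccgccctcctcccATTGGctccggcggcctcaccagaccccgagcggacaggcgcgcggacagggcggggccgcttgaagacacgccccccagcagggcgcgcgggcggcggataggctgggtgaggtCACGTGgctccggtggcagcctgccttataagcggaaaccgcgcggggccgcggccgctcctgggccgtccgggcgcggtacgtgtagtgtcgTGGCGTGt
Srebf2, chr15:82147019-82147268, plus strand: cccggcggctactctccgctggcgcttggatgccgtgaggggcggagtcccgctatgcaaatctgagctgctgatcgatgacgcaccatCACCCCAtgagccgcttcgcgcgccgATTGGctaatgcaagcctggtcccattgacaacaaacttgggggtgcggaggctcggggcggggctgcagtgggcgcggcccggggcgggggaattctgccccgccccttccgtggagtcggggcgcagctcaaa
Hmgcs1, chr13:119690101-119690350, plus strand: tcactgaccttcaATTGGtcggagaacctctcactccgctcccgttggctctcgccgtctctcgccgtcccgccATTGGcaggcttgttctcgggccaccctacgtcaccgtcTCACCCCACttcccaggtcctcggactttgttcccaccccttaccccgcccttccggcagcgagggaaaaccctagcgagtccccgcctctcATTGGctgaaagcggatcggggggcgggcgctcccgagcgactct
Acat2, chr17:12960726-12960975, minus strand: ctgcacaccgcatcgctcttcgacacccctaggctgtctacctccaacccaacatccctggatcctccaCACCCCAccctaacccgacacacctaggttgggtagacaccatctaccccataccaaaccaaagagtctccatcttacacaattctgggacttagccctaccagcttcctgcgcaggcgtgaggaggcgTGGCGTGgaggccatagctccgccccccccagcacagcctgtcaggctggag

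The full element TCACNCCAC was in the window of Hmgcs1, from 137 to 129 bases before the start, and 1.05% of 32851 windows of the same length held it. The core was in 4 of the 5 windows, and 15.6% of all windows held it. It lay from 8 to 2 bases before the RefSeq start of Insig1 on the opposite strand, a place inside the gene as counted. In the others it lay from 161 to 155 before the start of Srebf2, inside the longer element of Hmgcs1, and at 181 to 175 and 52 to 46 before the start of Acat2. CCAAT boxes were in the windows of Hmgcs1, with 3, and of Insig1 and Srebf2, with 1 each, against 33.8% of all windows. The E-box was in the windows of Insig1 and Abca1, against 6.02% of all windows. A match describes letters and is not a measured binding site.

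Each library held between 11098031 and 19270976 counts, and between 22813 and 24237 genes had at least 1 count. All 8 genes passed the filter on low counts, with which 16595 genes were tested. Levels are given as CPM, counts scaled by TMM-adjusted library size, and a gene is called at an adjusted p under 0.05 in edgeR's quasi-likelihood test, with Benjamini-Hochberg adjustment over all genes tested. Several marker groups moved with the treatment. Their counts of genes that rose or fell are for 5-FU+Saline over Control, where 32.8% of all genes rose and 32.7% fell. The summed level of 12 LT-HSC markers (4 rose, 6 fell) was 2649.6 to 2695 CPM in Control, 1734 to 1756 after 5-FU+Saline and 2075 to 2096 after 5-FU+FMT. Slamf1, which encodes the sort marker CD150, stood at 8.35 ± 1.16, 34.5 ± 2.06 and 24.4 ± 1.76 CPM (SD, n = 3) in that order of groups, and Cd48 at 30.7 ± 1.27, 53.7 ± 0.557 and 46.7 ± 1.53, so that its RNA was present in every library. Sums were highest after 5-FU+Saline for 8 cycling-cell markers (8 rose, at 1300.3 to 1331, 3089 to 3137 and 2362 to 2433 CPM), 11 B-lineage markers (11 rose, at 55.4 to 56.1, 944 to 962 and 437 to 481), 12 stroma and adipogenic markers (11 rose, 1 fell, at 63.3 to 64.3, 298 to 309 and 89.9 to 95.9, with Col3a1 and Col6a1 at 0 in Control), 12 monocyte and macrophage markers (8 rose, 2 fell, at 73.6 to 75.9, 109.9 to 117 and 77.0 to 78.2, with Timd4 at 0 in Control) and 9 endothelial markers (6 rose, 2 fell, at 404 to 422, 469 to 482 and 426 to 458). They were lowest there for 10 neutrophil markers (5 rose, 4 fell, at 2271 to 2309, 164 to 178 and 869 to 990.1), 13 erythroid markers (1 rose, 12 fell, at 1489 to 1507, 625 to 638 and 957 to 1001), 7 plasma cell markers (7 fell, at 16600.2 to 16996, 9379 to 9636 and 10982 to 11440.3) and 10 immediate early genes (10 fell, at 24372 to 24502, 3563 to 3593 and 10392 to 11369). Xist, the RNA of the inactive X chromosome, stood at 0.870 ± 0.421 CPM in Control, 1201 ± 20.2 after 5-FU+Saline and 682 ± 19.8 after 5-FU+FMT, and Y-linked Ddx3y at 168 ± 4.23, 38.9 ± 2.58 and 100.04 ± 2.28. The sex make-up of the groups, as these genes show it, therefore differed along with the treatment, and the 2 cannot be told apart. Both genes were present in every 5-FU library at close levels. Xist was at 1183 to 1223 CPM in 5-FU+Saline and 659 to 695 in 5-FU+FMT, and Ddx3y at 37.1 to 41.9 and 98.0 to 102.5. Whether the libraries of a group came from separate mice was not tested, so p-values and leaving out 1 library speak of libraries and not of mice. The part of the marker groups in the results below was not tested, and in such bulk samples fewer cells of a type and less RNA per cell cannot be told apart.

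Between untreated mice and mice given 5-FU and vehicle, the sensing genes Insig1 and Srebf2 and the export gene Abca1 fell, and the thiolase gene Acat2 and the cholesterol carrier gene Stard4 rose. Insig1 was 2.59-fold lower, Abca1 1.27-fold lower and Srebf2 1.23-fold lower, while Acat2 was 1.63-fold and Stard4 1.23-fold higher. Hmgcs1, Sqle and Fdps were not called. The 5 called genes are 62.5% of the 8, against 65.5% of all 16595 genes tested (32.8% higher and 32.7% lower), so the share was near the background. The median size of the log2 fold change was 0.32 over the 8 genes and 0.42 over all genes. In 5 of the 8 genes the libraries of the groups did not overlap, against 67.8% of all genes.

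With FMT rather than vehicle after 5-FU, Insig1, Srebf2 and Abca1 rose and Acat2 and Stard4 fell. Insig1 was 1.55-fold, Abca1 1.14-fold and Srebf2 1.06-fold higher in 5-FU+FMT than in 5-FU+Saline, and Acat2 was 1.19-fold and Stard4 1.10-fold lower. The background was 36.9% of genes called, 17.7% higher and 19.2% lower, and the groups did not overlap in 4 of the 8 genes against 46.3% of all. This comparison shares the 5-FU+Saline libraries with the one before, so their directions are not independent of each other. The median size of the log2 fold change was 0.15 over the 8 genes and 0.20 over all. Of the 5 calls, those of Srebf2, Acat2, Stard4 and Abca1 each ended when 1 of the libraries named with them below was left out. Without 5-FU+FMT replicate 1, 3 of the 8 genes were called, beside 5557 of all 17058 genes then tested.

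Set against Control, 2 genes fell and 2 rose in 5-FU+FMT. Insig1 was 1.67-fold and Srebf2 1.16-fold lower than in Control, and Acat2 was 1.37-fold and Stard4 1.12-fold higher. These 4 calls are 50.0% of the 8 genes, against 46.6% of all genes (25.0% higher and 21.6% lower). Abca1 did not pass the test. The groups did not overlap in 5 of the 8 genes, against 52.7% of all genes.

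**Figure D1:**
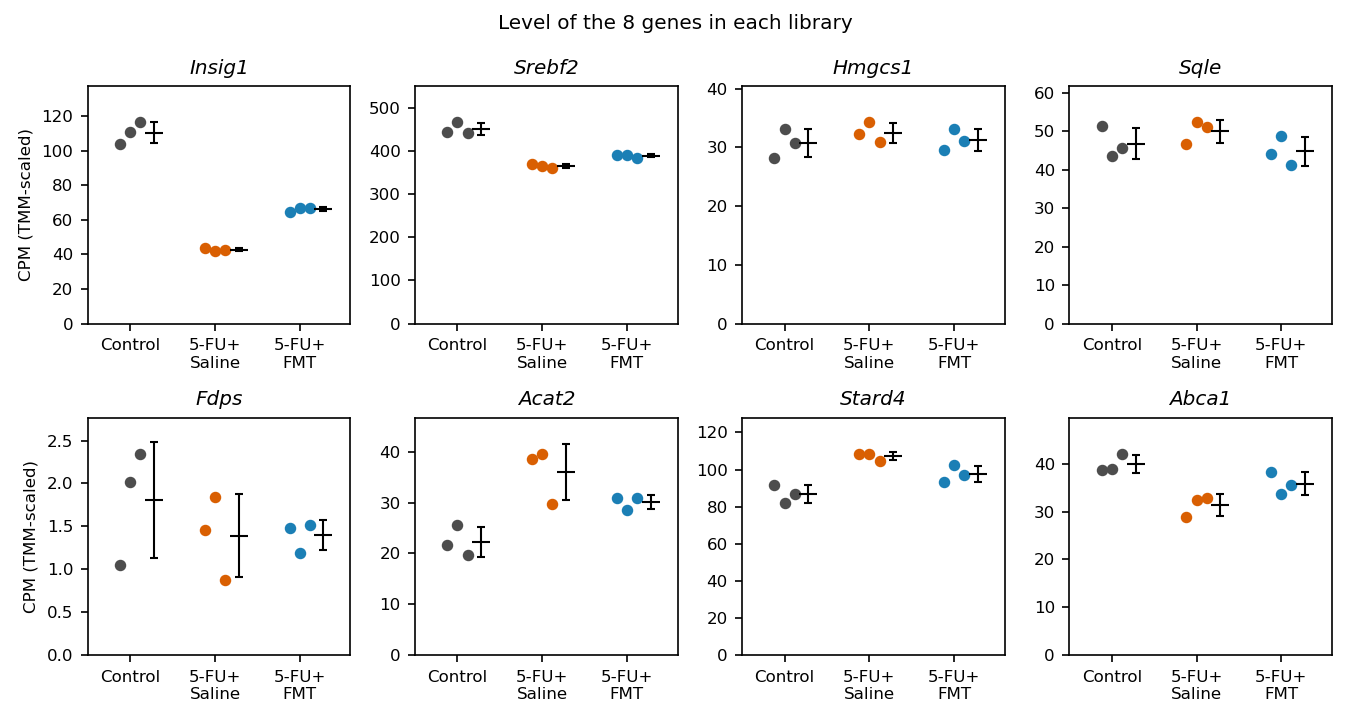
Level of the 8 genes in each library, in CPM from 0, by group. Points are single libraries and the bar beside them is the mean ± SD of 3. Insig1 shows 3 separate levels, highest in Control (104 to 116 CPM) and lowest in 5-FU+Saline (42.0 to 43.6), whereas the 9 libraries of Hmgcs1 lie between 28.3 and 34.3.

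Insig1 encodes the endoplasmic reticulum protein that retains SCAP and SREBP when sterols are high, and it lies on mm10 chromosome 5 from 28071363 to 28078662, on the plus strand. Its level was 104, 110.7 and 116.4 CPM in Control replicates 1 to 3. In 5-FU+Saline it was 43.6, 42.0 and 42.4 CPM, and in 5-FU+FMT 64.8, 67.1 and 66.5. The 3 groups did not overlap, and the gap between any pair of groups was larger than the whole range within a group. The means were 110.3 ± 6.22, 42.7 ± 0.844 and 66.1 ± 1.2 CPM (SD, n = 3). The log2 fold change of 5-FU+Saline over Control was -1.37 (SE 0.0534, adjusted p = 1.5e-36), that of 5-FU+FMT over 5-FU+Saline was 0.63 (SE 0.0560, adjusted p = 5.34e-16), and that of 5-FU+FMT over Control was -0.74 (SE 0.0514, adjusted p = 2.08e-21). It was the member that changed most in all 3 comparisons: 11.05%, 13.7% and 13.6% of all genes tested had a larger fold change in these. Each of the 3 calls also held when the test asked for a change beyond 1.2-fold, which 44.0%, 10.3% and 19.8% of all genes passed. Of the other members only Acat2 passed that test, in both 5-FU groups over Control.

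Srebf2, which encodes SREBP2, lies on chromosome 15 from 82147181 to 82205379 on the plus strand. Its level was 445.1, 467.3 and 443.0 CPM in Control, 370.8, 366.7 and 360.9 after 5-FU+Saline, and 392.1, 391.3 and 385.1 after 5-FU+FMT. The groups were apart in all 3 pairs, but the step between the 5-FU groups, from 366.1 ± 4.98 to 389.5 ± 3.82 CPM (SD, n = 3), was small beside that from the Control mean of 451.8 ± 13.5. The log2 fold changes were -0.30 (SE 0.0278, adjusted p = 5.4e-16) for 5-FU+Saline over Control, 0.09 (SE 0.0280, adjusted p = 0.00774) for 5-FU+FMT over 5-FU+Saline and -0.21 (SE 0.0280, adjusted p = 7.69e-10) for 5-FU+FMT over Control. In these 3 comparisons 61.7%, 75.1% and 57.1% of all genes had a larger fold change, so that most genes changed by more. Without 5-FU+Saline replicate 3 the difference between the 5-FU groups did not pass (log2 fold change 0.08, adjusted p = 0.0590).

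Acat2 encodes a cytosolic thiolase that joins acetyl-CoA units ahead of mevalonate, and is not the cholesterol esterifying enzyme of the like protein name, which the gene Soat2 encodes. It lies on chromosome 17 from 12942890 to 12960747 on the minus strand. Its level was 21.6, 25.6 and 19.7 CPM in Control, 38.7, 39.6 and 29.7 after 5-FU+Saline and 30.9, 28.6 and 31.0 after 5-FU+FMT. All 6 libraries of treated mice were above all 3 of Control, and 5-FU+Saline replicate 3 lay within the range of the 5-FU+FMT libraries. The means were 22.3 ± 2.99, 36.0 ± 5.46 and 30.2 ± 1.37 CPM (SD, n = 3). The log2 fold change was 0.70 for 5-FU+Saline over Control (SE 0.0898, adjusted p = 1.44e-10) and 0.45 for 5-FU+FMT over Control (SE 0.0927, adjusted p = 2.71e-05). Between the 5-FU groups it was -0.25 (SE 0.0856, adjusted p = 0.0168). That call ended without 5-FU+Saline replicate 1 (adjusted p = 0.118), 5-FU+Saline replicate 2 (0.160) or 5-FU+FMT replicate 2 (0.0782).

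Reads of Acat2 may be shared with near copies. Acat3 matched it at 97.7% identity over 1477 bases and held 8 to 18 counts per library, and a stretch of 445 bases matched Tcp1, a chaperonin subunit gene on the other strand, at 98.7%. Tcp1 stood at 217 ± 0.861, 377 ± 12 and 299.9 ± 8.28 CPM in Control, 5-FU+Saline and 5-FU+FMT, the same order of groups as Acat2, and its part in the Acat2 counts was not tested. With the counts of Acat3 added, the log2 fold change of Acat2 was 0.68 for 5-FU+Saline over Control (adjusted p = 3.51e-10). It was -0.23 for 5-FU+FMT over 5-FU+Saline (0.0265) and 0.45 for 5-FU+FMT over Control (2.92e-05).

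Hmgcs1 encodes HMG-CoA synthase, the step after that thiolase, and lies on chromosome 13 from 119690379 to 119708260 on the plus strand. Its level was 28.3, 33.2 and 30.8 CPM in Control, 32.3, 34.3 and 30.9 after 5-FU+Saline and 29.5, 33.1 and 31.1 after 5-FU+FMT. The 3 groups overlapped throughout. The log2 fold changes were 0.08 (95% interval -0.08 to 0.24, adjusted p = 0.368), -0.05 (-0.21 to 0.10, adjusted p = 0.623) and 0.03 (-0.13 to 0.19, adjusted p = 0.815), in the same order of comparisons as above. These intervals rest on 362 to 598 counts per library. An antisense gene, Gm48342, covers 12.1% of its exon bases and held at most 14 counts in any library.

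Fdps encodes farnesyl diphosphate synthase, at the branch from which sterols and prenyl groups are made, and lies on chromosome 3 from 89093588 to 89101959 on the minus strand. It was barely counted, with 14 to 44 counts per library. Its level was 1.04, 2.02 and 2.35 CPM in Control, 1.45, 1.85 and 0.878 after 5-FU+Saline and 1.48, 1.19 and 1.52 after 5-FU+FMT, and the groups overlapped. The log2 fold changes were -0.40 (95% interval -1.15 to 0.34, adjusted p = 0.347), 0.02 (-0.75 to 0.79, adjusted p = 0.973) and -0.38 (-1.14 to 0.38, adjusted p = 0.432), intervals that are wide at this depth. Reads of Fdps may also be shared, since 7 genes matched its transcript at 90% identity or more over at least 100 bases, 6 of them processed pseudogenes. Gm3571, at 98.9% identity over 1062 bases, held 24 to 55 counts per library, and Gm43738 on the same strand covers 26.7% of the exon bases of Fdps. With all 7 added the level was 4.90 ± 1.21, 4.07 ± 0.741 and 4.09 ± 0.599 CPM (SD, n = 3), and the gene was again not called (adjusted p = 0.225, 0.974 and 0.298).

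Sqle encodes squalene epoxidase, the oxygen-dependent step that commits squalene to sterols, and lies on chromosome 15 from 59315077 to 59331192 on the plus strand. Its level was 51.4, 43.5 and 45.5 CPM in Control, 46.6, 52.4 and 51.1 after 5-FU+Saline and 44.1, 48.9 and 41.3 after 5-FU+FMT, with overlap in every pair of groups. The log2 fold changes were 0.10 (95% interval -0.04 to 0.23, adjusted p = 0.202), -0.16 (-0.30 to -0.03, adjusted p = 0.0505) and -0.06 (-0.20 to 0.07, adjusted p = 0.464). The middle value, of 5-FU+FMT over 5-FU+Saline, sat at the threshold. It passed in 9 of 19 alternatives, with adjusted p from 0.0118 without 5-FU+FMT replicate 2 to 0.0494 without Control replicate 2. Leaving out Control replicate 1 or 3 or 5-FU+Saline replicate 1 also gave a call (0.0441, 0.0466 and 0.0220). Without Control replicate 1 Sqle was also called higher in 5-FU+Saline than in Control (log2 fold change 0.17, adjusted p = 0.0432).

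Stard4 encodes a small cytosolic protein that carries cholesterol between membranes, and lies on chromosome 18 from 33199355 to 33213862 on the minus strand. Its level was 91.8, 82.1 and 86.6 CPM in Control, 108.4, 108.5 and 104.7 after 5-FU+Saline and 93.4, 102.2 and 97.1 after 5-FU+FMT. The 3 groups did not overlap, with 5-FU+Saline on top. The log2 fold change was 0.30 (SE 0.0464, adjusted p = 3.37e-08) for 5-FU+Saline over Control, -0.14 (SE 0.0456, adjusted p = 0.0139) for 5-FU+FMT over 5-FU+Saline and 0.17 (SE 0.0474, adjusted p = 0.00266) for 5-FU+FMT over Control. The middle call ended without 5-FU+FMT replicate 1 (log2 fold change -0.11, adjusted p = 0.107), and the last under upper-quartile scaling (0.0998, adjusted p = 0.0779).

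Abca1 encodes the membrane pump that loads cholesterol onto apolipoprotein, a target of LXR, and lies on chromosome 4 from 53030787 to 53159895 on the minus strand. Its level was 38.6, 39.0 and 42.1 CPM in Control, 28.8, 32.5 and 32.9 after 5-FU+Saline and 38.4, 33.7 and 35.5 after 5-FU+FMT. The 3 groups did not overlap, although the highest 5-FU+FMT library (38.4) lay just below the lowest Control library (38.6). The log2 fold change was -0.35 (SE 0.0742, adjusted p = 3.21e-05) for 5-FU+Saline over Control and 0.19 (SE 0.0748, adjusted p = 0.0373) for 5-FU+FMT over 5-FU+Saline. For 5-FU+FMT over Control it was -0.16 (95% interval -0.30 to -0.01, adjusted p = 0.0755). The call between the 5-FU groups ended without 5-FU+Saline replicate 1 (adjusted p = 0.226), 5-FU+FMT replicate 1 (0.227) or 5-FU+FMT replicate 3 (0.0673), in DESeq2 (0.0973), with RLE size factors (0.0573) and with no filter on low counts (0.0648). The difference between 5-FU+FMT and Control passed without 5-FU+FMT replicate 1 (adjusted p = 0.0396), with upper-quartile scaling (0.0100) and with a stricter filter (0.0288).

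**Figure D2:**
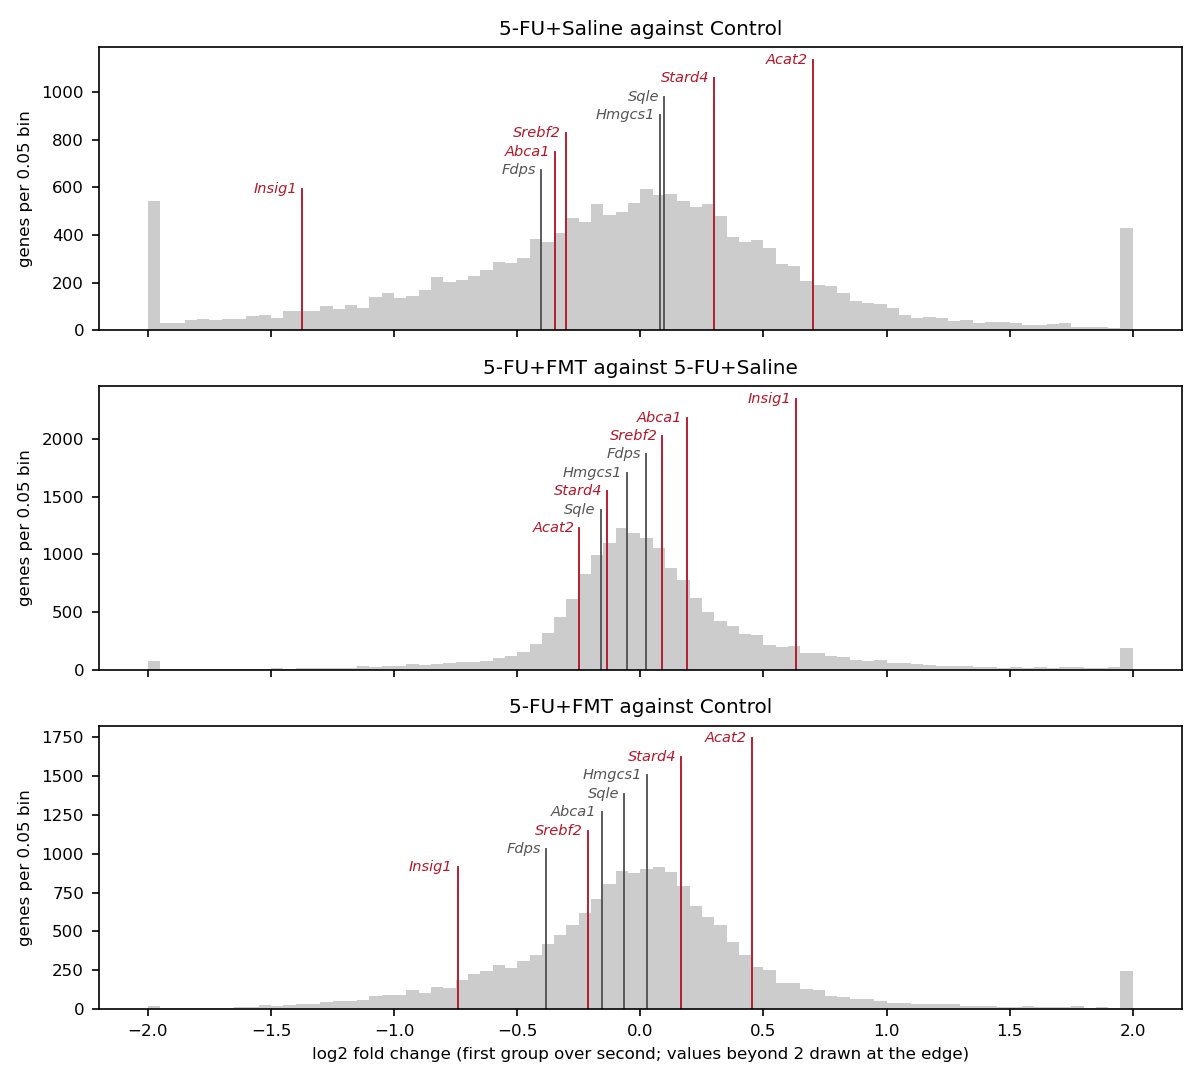
Log2 fold change of the 8 genes (vertical lines, red where called and grey where not, with heights that only keep the names apart) over the histogram of all 16595 genes tested, in bins of 0.05, for the 3 comparisons. Insig1 lies in the tails of each, at -1.37, 0.63 and -0.74, and the other 7 genes lie within the body of the distribution.

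Per kilobase of exon, which allows levels of different genes to be set side by side, Srebf2 was highest in every group. In Control it stood at 62.9 ± 1.87 FPKM (SD, n = 3), followed by Insig1 at 35.7 ± 2.0, Stard4 at 15.5 ± 0.872, Acat2 at 8.77 ± 1.17, Sqle at 8.44 ± 0.741, Hmgcs1 at 6.70 ± 0.537, Abca1 at 3.85 ± 0.186 and Fdps at 0.428 ± 0.161. Acat2 and Sqle overlapped in Control, and the other neighbours in that order did not. Of all genes tested, 4.07% were above Srebf2, 8.34% above Insig1 and 89.8% above Fdps, whose level may be an undercount given its near copies. In 5-FU+Saline the order changed: Srebf2 at 51.0 ± 0.693 FPKM was followed by Stard4 at 19.2 ± 0.395, and then by Acat2 at 14.2 ± 2.14 and Insig1 at 13.8 ± 0.273, which overlapped. In 5-FU+FMT Insig1 was again second, at 21.4 ± 0.388 FPKM, above Stard4 at 17.5 ± 0.791 and Acat2 at 11.9 ± 0.540. Sqle, Hmgcs1, Abca1 and Fdps kept the last 4 places, in that order, in all 3 groups.

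**Figure D3:**
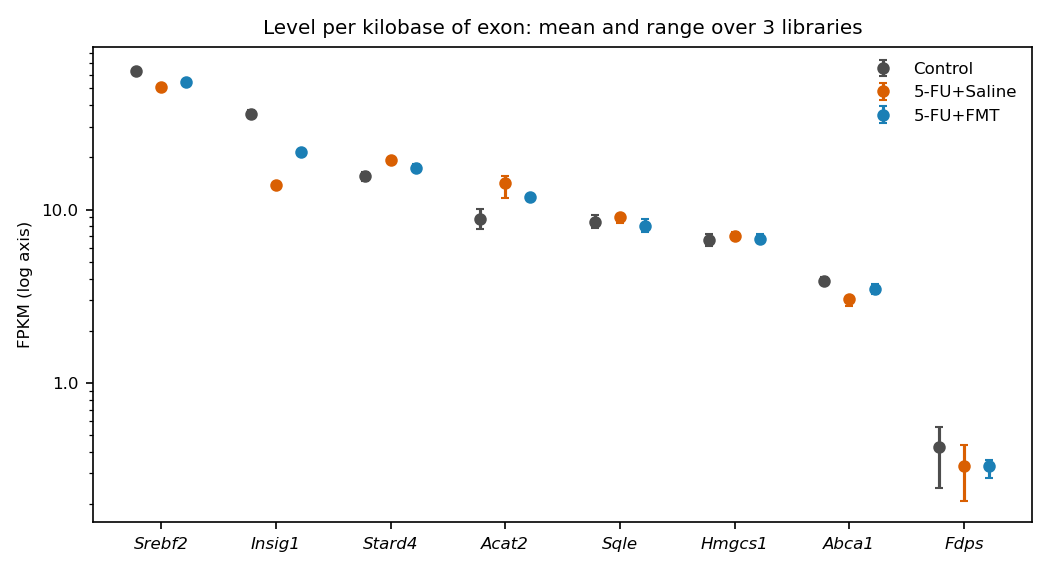
Level of the 8 genes per kilobase of exon (FPKM, log axis) by group, ordered by the Control mean. Points are means and bars the range over 3 libraries. Insig1 drops from second place in Control (35.7 FPKM) to below Stard4 in 5-FU+Saline (13.8 against 19.2), and Fdps stays under 0.6 FPKM throughout.

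The genes whose level followed each member most closely over the 9 libraries were found by the root mean square difference of centred log2 CPM, among protein-coding genes at 10 CPM or more. For Insig1 they were Ulk1 (0.0369) and Pde4b (0.0407), where Insig1 itself spanned 1.47 on that scale. For Srebf2 they were Bcl11a (0.0184) and Fam160a2 (0.0282), for Stard4 Hadh (0.0283) and Ap2a1 (0.0296), and for Abca1 Lgals8 (0.0536) and Pde4dip (0.0545). For Hmgcs1 they were Qrich1 (0.0363) and Usp15 (0.0458), for Sqle Dmwd (0.0531) and Ipo4 (0.0540), for Acat2 Rnf128 (0.0911) and Poc1a (0.0989), and for Fdps, whose few counts make the measure loose, Zfp970 (0.241) and Gys1 (0.264). All points share the same 9 libraries.

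The rest of the synthesis route did not move as one. Of 21 cholesterol synthesis genes, all tested, 3 rose and 9 fell in 5-FU+Saline over Control, where 32.8% of all genes rose and 32.7% fell. The median log2 fold change was -0.15 over the list and -0.02 over all genes. Leaving out the 4 members among the 21 gave 2 and 9 of 17, with a median of -0.22. Lss, which closes the sterol rings, fell from 40.0 ± 2.34 to 24.1 ± 1.5 CPM (SD, n = 3) with 5-FU+Saline and was 30.5 ± 1.13 in 5-FU+FMT. Msmo1, a sterol methyl oxidase, took values of 26.8 ± 0.200, 15.4 ± 2.28 and 18.5 ± 1.40 CPM in the 3 groups and was called in all 3 comparisons, although the 5-FU groups overlapped (adjusted p = 0.0329). The call between the 5-FU groups ended without 5-FU+Saline replicate 1 or 3 (0.175 and 0.170) or 5-FU+FMT replicate 1 (0.192), with no filter on low counts (0.0575) and in DESeq2 (0.0851).

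The genes that rose included Lbr, the lamin B receptor, which also has sterol reductase activity. Its level was 217 ± 4.30, 308 ± 3.24 and 261 ± 7.52 CPM in Control, 5-FU+Saline and 5-FU+FMT, with log2 fold changes of 0.51, -0.24 and 0.27 (adjusted p = 9.02e-25, 5.25e-10 and 2.61e-11). Ebp, a sterol isomerase encoded on the X chromosome, rose from 27.5 ± 2.29 to 34.0 ± 1.41 CPM with 5-FU+Saline (adjusted p = 0.000761) and was 31.7 ± 2.11 in 5-FU+FMT, a difference from Control (adjusted p = 0.0391) that ended without Control replicate 2 (0.198), 5-FU+FMT replicate 1 (0.209) or 5-FU+FMT replicate 3 (0.0592). It also ended in DESeq2 (0.0719) and limma-voom (0.0502), with upper-quartile scaling (0.182) and with the stricter filter (0.0599). Over the 21 genes, 2 rose and 2 fell in 5-FU+FMT over 5-FU+Saline, beside 17.7% and 19.2% of all genes (median log2 fold change -0.0043, all genes 0.01). In 5-FU+FMT over Control 3 rose and 4 fell, beside 25.0% and 21.6% of all genes (median -0.13, all genes -0.01). Without Control replicate 2 the count for 5-FU+FMT over Control was 4 in all, beside 7206 of all 17128 genes then tested. Under upper-quartile scaling it was 2 higher and 9 lower, beside 3315 higher and 4559 lower of all 16595 genes.

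**Figure D4:**
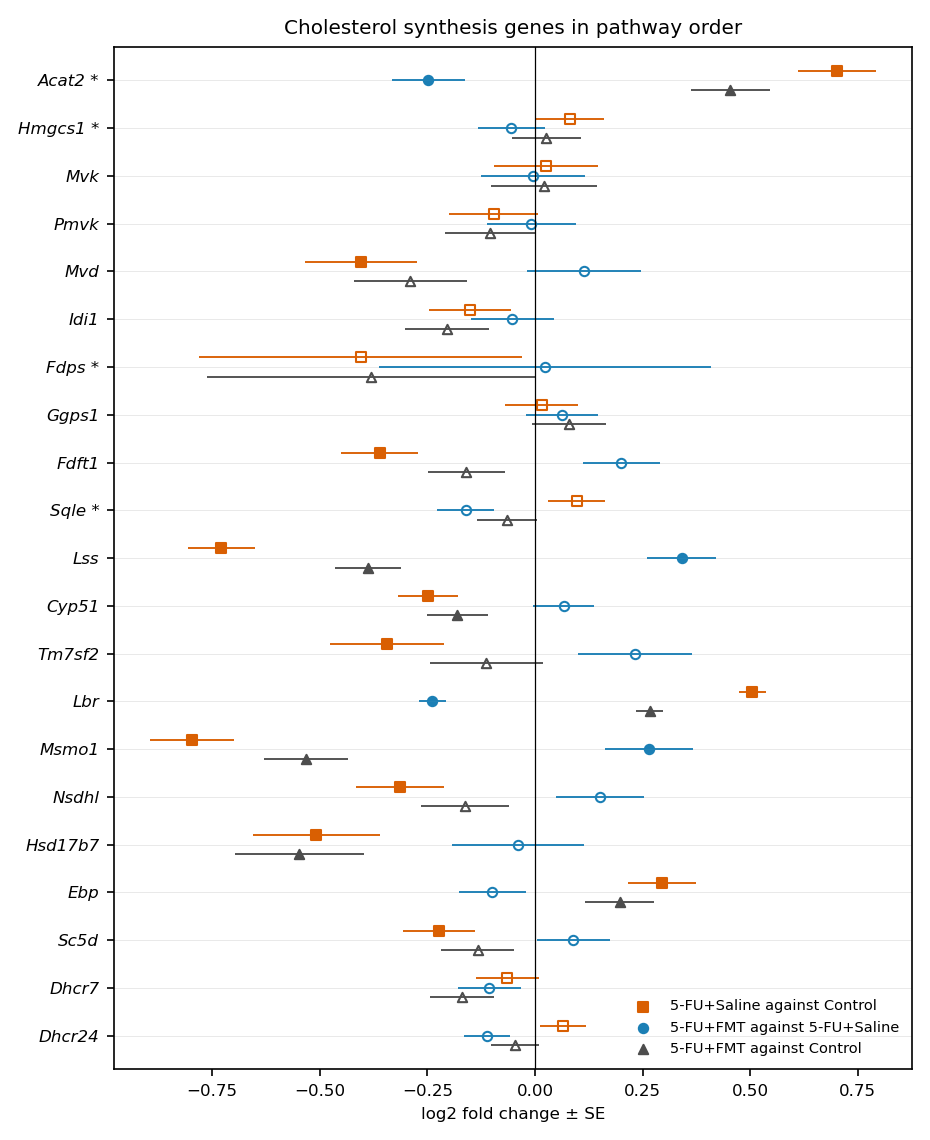
Log2 fold change ± SE of 21 cholesterol synthesis genes in pathway order from top to bottom, for the 3 comparisons, filled where called and open where not, with the 4 members marked by an asterisk. Acat2, at the top, and Lss lie on opposite sides of 0 in every comparison (0.70 and -0.73 for 5-FU+Saline over Control), and Hmgcs1 lies near 0.

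Of 13 genes of sterol sensing and SREBP processing, Insig1 had the largest fold change in each comparison. Scap, the escort that INSIG holds back, moved the other way: its level was 115.6 ± 4.47 CPM in Control, 160.7 ± 1.67 after 5-FU+Saline and 133.8 ± 4.55 after 5-FU+FMT (SD, n = 3), with log2 fold changes of 0.47, -0.26 and 0.21 (adjusted p = 4.96e-18, 2.56e-08 and 1.09e-05). Insig2, the second INSIG, stood at 14.3 ± 1.08, 15.5 ± 1.88 and 17.1 ± 1.01 CPM and was not called (adjusted p = 0.374, 0.334 and 0.0564), although the last passed without Control replicate 3 (0.0459), with total counts (0.0256) and with no filter (0.0435). Srebf1, which encodes SREBP1, went up by 0.11 on the log2 scale in 5-FU+Saline over Control (adjusted p = 0.00926) and down by 0.10 in 5-FU+FMT over 5-FU+Saline (0.0286). Its level was 136.8 ± 5.08, 147.4 ± 1.35 and 137.3 ± 2.99 CPM. The first call ended without Control replicate 3 (adjusted p = 0.0505), under upper-quartile scaling (0.453) and with the stricter filter (0.0842). The second ended under upper-quartile scaling (0.0563) and without 5-FU+Saline replicate 2 or 3 (0.0811 and 0.0588) or 5-FU+FMT replicate 1 or 3 (0.0501 and 0.124).

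Erlin1, a cholesterol-binding protein of the endoplasmic reticulum, rose from 45.7 ± 3.58 to 56.9 ± 3.14 CPM with 5-FU+Saline (adjusted p = 1.21e-05), and was 50.7 ± 1.96 in 5-FU+FMT, a fall from 5-FU+Saline that was not called without 5-FU+Saline replicate 2 or 3 (0.0612 and 0.147) or 5-FU+FMT replicate 1 (0.122). Mbtps1, the site-1 protease that cuts SREBPs, fell from 184.2 ± 9.18 to 164.6 ± 2.0 CPM (adjusted p = 7.74e-05), and Rnf145, a ubiquitin ligase that acts on SCAP, from 119.7 ± 2.34 to 109.3 ± 4.28 (0.00422, but 0.0742 without 5-FU+Saline replicate 3 and 0.101 with no filter). In all, 3 of the 13 rose and 5 fell in 5-FU+Saline over Control (32.8% and 32.7% of all genes), 2 rose and 3 fell in 5-FU+FMT over 5-FU+Saline (17.7% and 19.2%), and 1 rose and 3 fell in 5-FU+FMT over Control (25.0% and 21.6%). The called share was near that of all genes in the first 2 comparisons.

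Of 15 genes of sterol uptake and transport, 3 rose and 9 fell in 5-FU+Saline over Control, where 32.8% of all genes rose and 32.7% fell (median log2 fold change -0.23, all genes -0.02). In 5-FU+FMT over 5-FU+Saline 6 rose and 2 fell, with 17.7% and 19.2% of all genes (0.14, all genes 0.01), and in 5-FU+FMT over Control 3 rose and 6 fell, with 25.0% and 21.6% (-0.073, all genes -0.01). Gramd1b, which carries cholesterol from the plasma membrane to the endoplasmic reticulum, stood at 216 ± 5.13, 56.5 ± 3.26 and 122 ± 7.86 CPM in Control, 5-FU+Saline and 5-FU+FMT (SD, n = 3), 3.81-fold lower in 5-FU+Saline than in Control (adjusted p = 1.88e-51) and 2.15-fold higher in 5-FU+FMT than in 5-FU+Saline (1.23e-33).

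The lipoprotein receptor genes Vldlr and Lrp1 had the same order of groups. Vldlr stood at 131 ± 0.978, 46.2 ± 1.03 and 87.0 ± 2.71 CPM and Lrp1 at 73.7 ± 1.69, 19.6 ± 0.819 and 27.4 ± 2.53 in Control, 5-FU+Saline and 5-FU+FMT, and both were called in all 3 comparisons. The HDL receptor gene Scarb1, like Stard4, was highest in 5-FU+Saline, at 68.7 ± 2.83, 89.7 ± 2.16 and 79.2 ± 2.91 CPM (adjusted p = 2.3e-10, 0.00227 and 0.000499). Osbp, a sterol-binding protein of the Golgi contact sites, stood at 99.6 ± 4.49, 110.8 ± 1.63 and 116.1 ± 6.88 CPM, higher than Control in both 5-FU groups (adjusted p = 0.00192 and 2.67e-05). The rise of Osbp with 5-FU+Saline did not pass under upper-quartile scaling (0.123).

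Of 12 genes of sterol efflux and LXR, 2 rose and 6 fell in 5-FU+Saline over Control, beside 32.8% and 32.7% of all genes (median log2 fold change -0.26, all genes -0.02). For 5-FU+FMT over 5-FU+Saline 6 rose and 1 fell, beside 17.7% and 19.2% (0.16, all genes 0.01), and for 5-FU+FMT over Control 2 rose and 5 fell, beside 25.0% and 21.6% (-0.22, all genes -0.01). Nr1h2, which encodes LXR beta, stood at 353.3 ± 4.28 CPM in Control, 165.2 ± 3.25 after 5-FU+Saline and 219.8 ± 11.7 after 5-FU+FMT (SD, n = 3). It was 2.14-fold lower, 1.33-fold higher and 1.61-fold lower in the 3 comparisons (adjusted p = 7.06e-44, 1.56e-17 and 8.79e-31). Nr1h3, LXR alpha, stood at 2.10 ± 0.383, 2.39 ± 0.372 and 1.42 ± 0.194 CPM and was not called (adjusted p = 0.594, 0.0573 and 0.167), although the second passed without 5-FU+Saline replicate 2 (0.0475).

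Mylip, an LXR target that encodes a ubiquitin ligase, stood at 60.2 ± 2.32, 26.1 ± 1.06 and 39.7 ± 0.683 CPM, and Arl4c at 57.7 ± 1.58, 29.4 ± 1.72 and 35.8 ± 0.923 CPM, with the groups in the same order as for Abca1. Apoe, the apolipoprotein, went the other way, at 119 ± 1.52, 211 ± 1.75 and 155 ± 9.62 CPM (adjusted p = 6.29e-32, 1.64e-17 and 2.91e-13), as did Lpcat3, a phospholipid remodelling enzyme, in both 5-FU groups against Control (53.3 ± 1.54, 76.3 ± 1.36 and 71.1 ± 2.81 CPM). The LXR-linked genes thus did not move as one, and Abca1 had the smallest fold change of the 6 that fell with 5-FU+Saline.

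**Figure D5:**
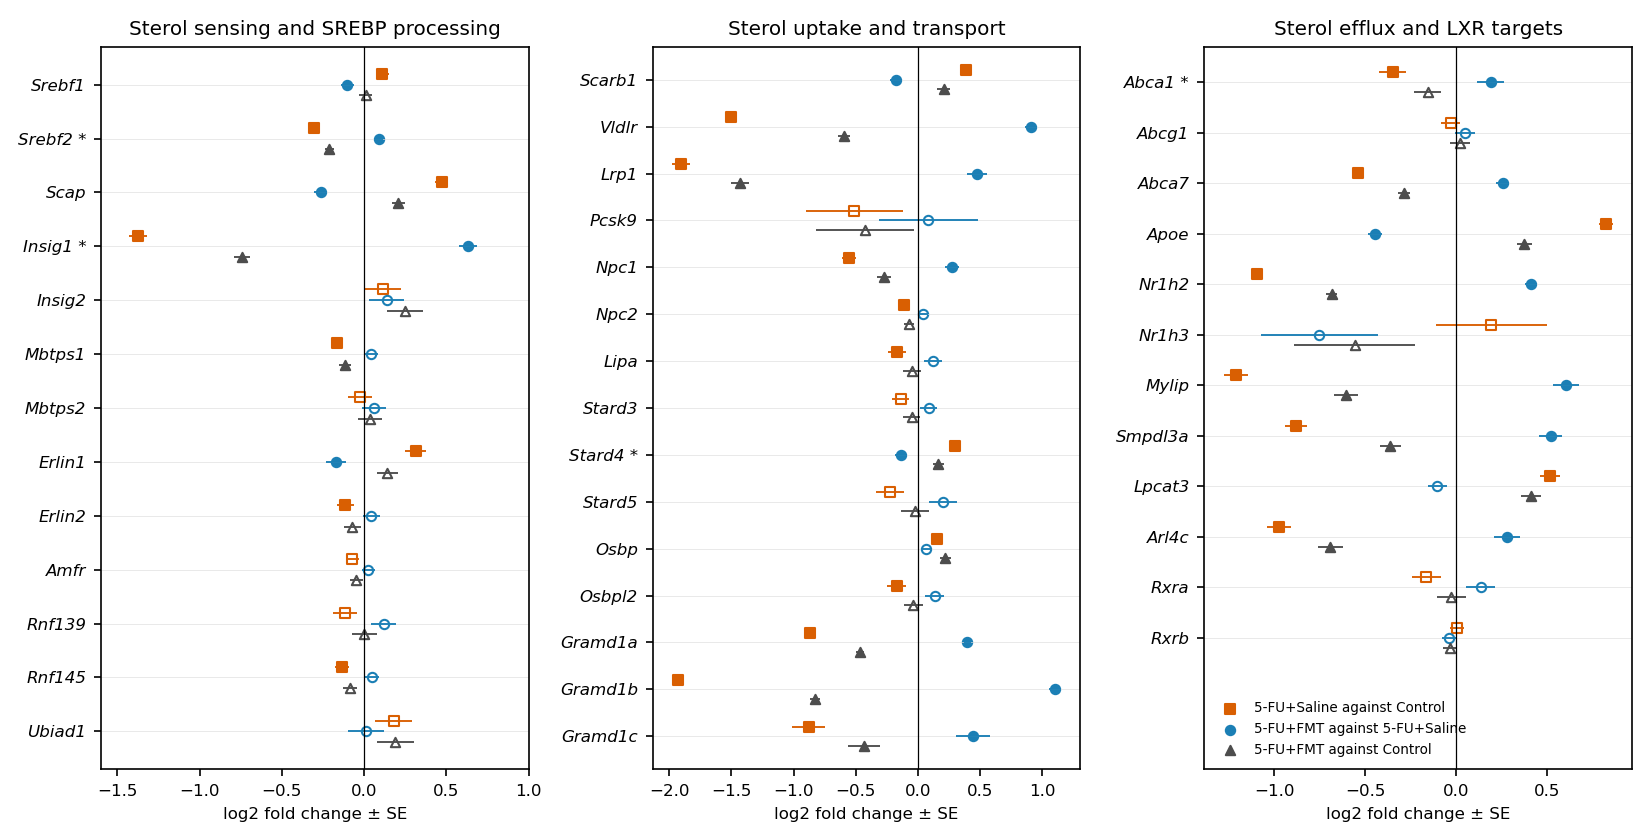
Log2 fold change ± SE of the genes of sterol sensing (13), uptake and transport (15) and efflux with LXR (12), for the 3 comparisons, filled where called and open where not, with members marked by an asterisk. Insig1, Gramd1b and Nr1h2 lie far left of 0 for 5-FU+Saline over Control (-1.37, -1.93 and -1.10), and Scap, Scarb1, Stard4 and Apoe lie right of it.

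Of 7 genes of sterol esterification and oxysterols, 6 were tested, since Ch25h had 15 counts over all libraries. None rose and 4 fell in 5-FU+Saline over Control, where 65.5% of all genes were called, 32.8% higher and 32.7% lower (median log2 fold change -0.44, all genes -0.02). In 5-FU+FMT over 5-FU+Saline 3 rose and none fell, where the shares were 17.7% and 19.2% (0.25, all genes 0.01), and in 5-FU+FMT over Control none rose and 2 fell, where they were 25.0% and 21.6% (-0.13, all genes -0.01). Nceh1, which frees cholesterol from its esters, stood at 123 ± 6.62, 57.9 ± 1.71 and 88.5 ± 5.51 CPM (SD, n = 3). Soat1, which makes those esters, stood at 45.9 ± 2.73, 37.2 ± 2.53 and 45.3 ± 2.69 CPM, so that 5-FU+FMT was not called against Control (adjusted p = 0.786). Soat2 stood at 12.4 ± 1.13, 8.31 ± 0.861 and 9.71 ± 1.10 CPM, and Cyp27a1, which makes 27-hydroxycholesterol, at 9.92 ± 0.333, 5.67 ± 0.500 and 8.45 ± 1.84. The difference of Soat2 between 5-FU+FMT and Control (adjusted p = 0.0268) ended without any 1 of Control replicate 1 or 2 or 5-FU+FMT replicate 1 or 2 (0.0687, 0.0934, 0.138 and 0.0687), with total counts (0.0505) and with no filter (0.104).

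Of 12 fatty acid synthesis genes, the other branch of SREBP targets, 8 rose and 3 fell in 5-FU+Saline over Control, against 32.8% and 32.7% of all genes (median log2 fold change 0.47, all genes -0.02). None rose and 6 fell in 5-FU+FMT over 5-FU+Saline, against 17.7% and 19.2% (-0.11, all genes 0.01), and 9 rose and 3 fell in 5-FU+FMT over Control, against 25.0% and 21.6% (0.22, all genes -0.01). No difference from the sterol lists was tested. Elovl6, a fatty acid elongase, stood at 73.1 ± 4.11, 130.3 ± 4.46 and 97.3 ± 9.0 CPM (SD, n = 3), the desaturase gene Fads1 at 71.5 ± 4.82, 109 ± 2.48 and 94.2 ± 3.53, and Acaca, which makes malonyl-CoA, at 63.3 ± 1.12, 92.8 ± 2.05 and 70.8 ± 2.92. All 3 were called in all 3 comparisons. Acss2, which makes acetyl-CoA from acetate, fell in both 5-FU groups, at 36.0 ± 1.63, 26.8 ± 2.98 and 27.5 ± 1.53 CPM. Fasn, at 321 ± 7.56, 307 ± 3.74 and 294 ± 8.64 CPM, and Scd2, at 349 ± 6.70, 316 ± 2.82 and 331 ± 8.31, were lower than Control in both by less than 1.2-fold.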

How the data were processed

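RNA-seq counts of 9 libraries were analysed. The submitters' processing notes name Trim Galore 0.6.5, HISAT2 2.2.1, SAMtools, featureCounts 2.0.1 and the build mm10. The deposited counts, per the file headers, are read pairs over exons, summed by gene on GENCODE M25, with no strand or multiple-mapping option shown. Symbols were matched for 55141 of 56262 genes.

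From these counts, genes passing filterByExpr (16595) were scaled by TMM and fitted over all 9 libraries in edgeR 4.0.16 (limma 3.58.1, data.table version 1.17.8, R 4.3.3) by the quasi-likelihood test, with Benjamini-Hochberg adjustment over all genes tested. What edgeR calls the biological coefficient of variation was 3.74%. It is a spread between libraries, and whether these came from separate mice was not tested. An SE is the log2 fold change divided by the square root of F. FPKM is CPM per kilobase of the tables' exon length. Near copies were sought with BLAST 2.17.0 among the transcripts of another GENCODE release on the same build (at least 90% identity over 100 bases). Alternatives were RLE, upper-quartile and total-count scaling, no filter or 5 CPM in 3 libraries, DESeq2 1.42.0, limma-voom, a test beyond 1.2-fold, only the 2 groups compared, a replicate block, and each library left out, and, chosen after seeing the data, near copies summed. Plots used matplotlib 3.10.9 (Python 3.11.15).

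The members and gene lists were chosen with earlier results of these data known. Besides the members and their direct partners (Insig2, Scap, Srebf1, Nr1h2 and Nr1h3), the genes named are, in each of 6 pathway lists and each comparison, up to 2 called higher and 2 called lower with the smallest p, and the 2 genes nearest in pattern to each member. Other genes are named only as markers, checks or copies. Some genes of these lists are not reported here and are left out of the list counts, though not of the fit.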

Additional observations from a re-analysis of the deposited data

How the results depend on the processing

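Testing for a change beyond 1.2-fold moved the counts most. All genes called went from 10872 to 7303 (44.0% of those tested) for 5-FU+Saline over Control. They went from 6123 to 1712 (10.3%) for 5-FU+FMT over 5-FU+Saline and from 7735 to 3280 (19.8%) for 5-FU+FMT over Control. Members called were then 2 for 5-FU+Saline over Control (Insig1 and Acat2), 1 for 5-FU+FMT over 5-FU+Saline (Insig1) and 2 for 5-FU+FMT over Control, and cholesterol synthesis genes called were 5, 0 and 3. With 1 library left out at a time, members called ranged from 5 to 6, from 3 to 6 and from 4 to 5 in that order of comparisons, and synthesis genes called from 8 to 13, from 3 to 5 and from 4 to 9. All genes called then ranged from 10298 to 11054, from 5301 to 6199 and from 6912 to 7724, of 16965 to 17228 tested. Upper-quartile scaling moved the median log2 fold change of all genes from -0.02 to -0.10 for 5-FU+Saline over Control, where 4661 genes were then higher and 6210 lower against 5443 and 5429, and gave 3315 higher and 4559 lower for 5-FU+FMT over Control against 4151 and 3584. For the latter comparison, total counts gave 4703 higher and 3077 lower, and the members called under upper-quartile scaling were 1 higher (Acat2) and 3 lower, with 11 synthesis genes called. The cause of these shifts was not tested. The replicate numbers were not taken as pairs, since the labels state no pairing by number. Deviations of same-numbered libraries correlated from -0.01 to 0.05 over 10013 genes. For 7 of the 9 libraries, the library of another group with the highest such correlation had the same number. That is a hint of pairing from the data and not the design. The 9 choices were not independent of each other, and pairing was not tested. The replicate block gave 5, 6 and 4 members called, 12, 5 and 8 synthesis genes, and 10847, 6193 and 7717 genes in all, and Insig2 passed in 5-FU+FMT over Control (adjusted p = 0.0453).

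Direction changed only in values that were not called: Fdps in 5-FU+FMT over 5-FU+Saline was -0.24 without 5-FU+Saline replicate 3, -0.023 without 5-FU+FMT replicate 1 and -0.037 without 5-FU+FMT replicate 3, in a range of -0.24 to 0.28 with 1 library left out. In 5-FU+FMT over Control, Hmgcs1 was -0.039 under upper-quartile scaling, -0.027 without Control replicate 1 and -0.015 without 5-FU+FMT replicate 2 (range -0.027 to 0.077), and Sqle was 0.0055 without Control replicate 1 (range -0.13 to 0.0055). Srebf1 in that comparison was -0.057 under upper-quartile scaling, -0.016 with the 5 CPM filter, and -0.0051, -0.0053 and -0.0025 without Control replicate 1, Control replicate 3 and 5-FU+FMT replicate 2 (range -0.0053 to 0.038). Of the alternatives for single genes, 1597 values kept direction and side of the threshold, 83 lost a call, 18 gained one and 12 changed sign. Fdps had the fewest counts of the 8 genes, 14 to 44 per library.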
